A study of Mus musculus with 192 samples.

Results

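The 6 mature microRNAs (miRs) of 3 hairpins, miR-211, miR-147 and miR-142a, were followed while mouse embryonic stem cells (mESCs) differentiated in retinoic acid (RA). They are 6 of the 1978 mature miRs listed in the small RNA libraries, and they were picked for their fall between 0 h and 96 h, outside the miR families known for pluripotency. The fall from 0 h to 96 h is therefore given as a description, with no test. Tests on the miRs were kept to libraries between 6 h and 72 h, and values that involve 0 h or 96 h are given without one. These libraries come from the same experiment, so the tests are not independent of the choice.

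MiRs are short RNAs that are cut from a hairpin, and each arm of the hairpin, 5p or 3p, can give a mature miR. Loaded into an Argonaute protein, a miR pairs through its seed, bases 2 to 8, with messenger RNAs and lowers their stability or translation. The level of a mature miR after its gene is shut off depends on how fast it decays and on how fast dividing cells dilute it. MiR-211 is known from melanocytes, where the factor MITF drives its host gene Trpm1, which encodes a cation channel. MiR-147 lies in the transcript of a small gene, AA467197 (also called Nmes1), and is known from activated macrophages. MiR-142 is known as a miR of blood cells, and it has also been described in mESCs.

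The cells were wild-type E14 mESCs, a single established line, kept in medium with 2 kinase inhibitors and the cytokine LIF, in which mESCs stay in the naive state of pluripotency. At 0 h they were moved to N2B27 medium with 0.25 µM all-trans RA and without the inhibitors and LIF, and cells were taken then, on the first day at 6, 12 and 24 h, and afterwards at 36, 48, 72 and 96 h. The medium was renewed at 48 h. Small RNA was sequenced from 4 series of libraries. The labels number biological replicates, and each number is read here as a differentiation run, which the labels do not state. The series were runs 5, 6 and 7 and a series in which run 3 gave 6 time points and run 4 gave 6 h and 12 h. Cytoplasmic and nuclear RNA came from replicates numbered 5, 6 and 7, and total RNA from replicates 1, 2 and 3. Whether the same number in different kinds of RNA marks the same differentiation was not given, and such values are only set side by side. All groups share the line and, after 0 h, the medium, so time in RA and time out of inhibitors and LIF cannot be told apart. In such bulk samples, a loss from every cell and a loss of the cells that held a miR cannot be told apart either.

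The 32 small RNA libraries held 1046530 to 16869700 counts (median 5652540). Among them, the 7 libraries of run 7 from 6 h on stood apart. In these, miR-148a-3p took 9.17 to 42.1% of counts, against 1.07 to 8.06% in the other 25 libraries, and 562 to 983 miRs were detected against 955 to 1267. Their correlation across miRs with the other libraries of the same time was 0.527 to 0.925, against 0.860 to 0.992 among the others. From 0 h to 6 h, 20.7% of 622 miRs were at least 4-fold lower in run 7, against 0.193 to 1.18% in the other series. Results that rest on run 7 are therefore given with and without it. The cytoplasmic RNA fitted the label of the cells: Pou5f1, the core factor of pluripotency, was at 1458 ± 86.3 CPM (counts per 1000000, SD, n = 3) at 0 h, and at 62.9 ± 14.4 at 96 h.

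The mature sequences, taken from RefSeq on the mouse build GRCm38.p6, are shown 5′ to 3′ because the seeds, in capitals, decide which messenger RNAs a miR can pair with. Mmu-miR-211-5p and mmu-miR-211-3p lie at chr7:64205831-64205852 and chr7:64205868-64205888, mmu-miR-147-5p at chr2:122640814-122640837, and mmu-miR-142a-5p and mmu-miR-142a-3p at chr11:87756867-87756887 and chr11:87756903-87756925, all on the plus strand. Mmu-miR-204-5p, at chr19:22750610-22750631, is added as the relative of miR-211-5p. Of the 6 members, 5 were matched to a sequence, and mmu-miR-147-3p was not.
mmu-miR-211-5p: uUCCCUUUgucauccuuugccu
mmu-miR-204-5p: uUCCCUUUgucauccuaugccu
mmu-miR-211-3p: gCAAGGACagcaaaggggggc
mmu-miR-147-5p: uGGAAACAuuucugcacaaacuag
mmu-miR-142a-3p: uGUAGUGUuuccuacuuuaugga
mmu-miR-142a-5p: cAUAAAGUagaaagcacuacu

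MiR-211-5p and miR-204-5p have the same seed and differ by U17A, counted from the 5′ end of miR-211-5p. Of 1679 mature miRs in the table, only miR-204-5p and miR-7670-3p share the seed of miR-211-5p, and none shares that of miR-211-3p, miR-147-5p, miR-142a-3p or miR-142a-5p. In the GENCODE annotation, Mir211 lies in an intron of 12 of the 23 Trpm1 transcripts, and 11 do not reach it. Mir147 lies in the 3′ UTR of 2 of the 4 AA467197 transcripts. Mir142 lies in an intron of the noncoding RNA Mir142hg, 3614 bases from Tspoap1 and 13241 bases from Supt4a. In each hairpin with a host, hairpin and host are on the same strand.

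Levels below are CPM after TMM scaling, which sets libraries to a common level over most miRs, and are listed in the order run 3 or 4, run 5, run 6 and run 7. MiR-211-5p was the most abundant of the 6 by mean count over all libraries, though not in each library. In run 3 at 24 h, miR-142a-3p was above it, at 223 CPM. At 0 h the level of miR-211-5p was 1379, 2521, 3298 and 3640 CPM. At 6 h it was 1137, 4258, 3272 and 5477 CPM, above the 0 h level in runs 5 and 7. The direction in run 7 turned with the scaling, since with library totals in place of TMM it was at 57.4% of its 0 h level at 6 h, at 34.2% at 12 h and at 14.4% at 24 h. At 12 h it was 397, 3529, 3027 and 3954 CPM. The series of runs 3 and 4 was thus at 28.8% of its 0 h level when runs 5 and 6 were at 140 and 91.8%. In that series 0 h is from run 3, and 6 h and 12 h are from run 4. Its changes from 0 h to these times, here and below, are therefore between different runs. At 24 h the levels were 136, 2029, 2454 and 2056 CPM, and at 36 h 54.8, 998, 778 and 1031 CPM. At 48 h they were 19.3, 364, 556 and 447 CPM. From 36 h on, every series was below all 4 libraries of 0 h. At 72 h miR-211-5p was down to 6.01, 67.1, 62.9 and 11.6 CPM, and at 96 h to 3.17, 21.2, 16.1 and 19.5 CPM. The share of the 0 h level that was left was 9.86 to 80.5% at 24 h, 1.40 to 16.9% at 48 h, 0.318 to 2.66% at 72 h and 0.230 to 0.842% at 96 h.

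The steepest loss of miR-211-5p came at different times in the 4 series. On the log2(CPM + 1) scale its change from 0 h to 24 h was -3.33, -0.31, -0.43 and -0.82. The series of runs 3 and 4 lost most in that window and less in each later one, while runs 6 and 7 lost most from 48 h to 72 h. The mean change was -1.22 ± 1.42 (SD, n = 4 series) from 0 h to 24 h, -2.39 ± 0.28 from 24 h to 48 h, -3.06 ± 1.54 from 48 h to 72 h and -0.89 ± 1.17 from 72 h to 96 h. The 4 series were closest together between 24 h and 48 h, where they changed by -2.76, -2.48, -2.14 and -2.20. A 2-fold fall was reached after 8.86, 32.1, 28.2 and 26.1 h, the last of which was 7.61 h with library totals. Run 7 made the steepest step, -5.16 between 48 h and 72 h, and its 72 h library held only 6 counts of this miR. Without run 7 the change in that window was -2.36.

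MiR-211-3p, the other arm of the hairpin, was lost sooner. Its level was 44.2, 71.5, 74.2 and 77.0 CPM at 0 h, and 16.2, 61.6, 44.8 and 48.3 CPM at 6 h. At 24 h it was 0.52, 16.9, 18.5 and 18.5 CPM, and at 48 h 0.44, 3.22, 2.70 and 1.82 CPM. All 4 series were thus below their 0 h level already at 6 h. At 72 h a single read was counted in the 4 libraries together, against 985 at 6 h, which is 0.0783% of the earlier level (95% interval 0.00198 to 0.437%, exact, for counting error only). At 96 h there were 6 reads, in runs 5 and 6. A 2-fold fall took 4.31, 16.8, 13.5 and 7.37 h.

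**Figure D1:**
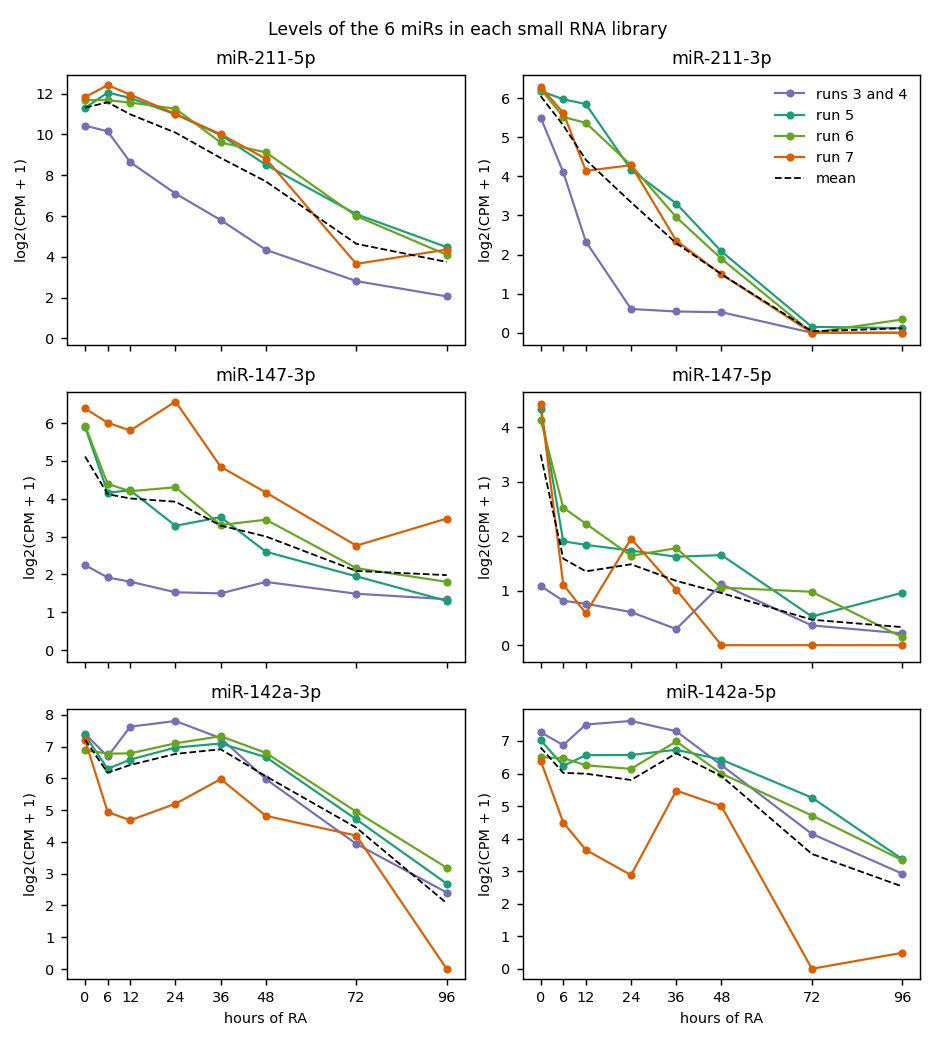
Level of each of the 6 miRs, as log2 of TMM-scaled CPM plus 1, against hours of RA, with a line for each series of libraries and a dashed line for the mean of the 4. The mean of miR-211-5p was lower at each time from 12 h on, miR-147-3p differed by series, from 3.75 to 82.7 CPM at 0 h, and miR-142a-3p outside run 7 was at 136 to 159 CPM at 36 h, against 118 to 168 CPM at 0 h.

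MiR-147-3p was the scarcer main arm, and its level depended on the series from the start. At 0 h it was 3.75, 58.8, 60.2 and 82.7 CPM, and the library of run 3 held only 10 reads of it. At 6 h it was 2.79, 16.9, 20.0 and 63.4 CPM, so that runs 5 and 6 had dropped below all libraries of runs 5, 6 and 7 at 0 h. At 24 h the levels were 1.89, 8.76, 18.8 and 94.1 CPM. At 48 h they were 2.49, 5.07, 9.92 and 16.9 CPM, and at 96 h 1.54, 1.47, 2.50 and 10.1 CPM. In runs 5 and 6 a 2-fold fall took 3.45 and 3.89 h. In run 7 it took 32.2 h. In the series of runs 3 and 4 the level never fell that far on the log2(CPM + 1) scale. The late time in run 7 depends on the scaling. With library totals in place of TMM, 2-fold falls took 3.46 h in run 5, 4.07 h in run 6 and 3.46 h in run 7.

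MiR-147-5p was lower within 6 h in the 3 series that held more than a few reads. Its level was 1.12, 19.3, 16.7 and 20.7 CPM at 0 h and 0.76, 2.76, 4.76 and 1.16 CPM at 6 h. In runs 5, 6 and 7, 14.2, 28.5 and 5.63% of the 0 h level was left at 6 h. At 96 h it was down to 0.16, 0.95, 0.11 and 0 CPM, 15 reads in 4 libraries. Its log2 fold change from 0 h to 6 h was -2.56 (SE 0.85) in the edgeR fit. It is given with no test because the 0 h libraries served to choose the members. On the log2(CPM + 1) scale the change was -0.27, -2.44, -1.62 and -3.32. The steepest was in run 7, at the step where its libraries began to stand apart.

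The course of miR-142a-3p also differed by series. Its level was at 168, 163, 118 and 146 CPM at 0 h, and at 102, 77.7, 109 and 29.7 CPM at 6 h. At 24 h it was at 223, 124, 137 and 35.8 CPM, and at 36 h at 153, 136, 159 and 62.0 CPM. Outside run 7, the libraries of 24 h and 36 h thus overlapped with those of 0 h. At 48 h the levels were 62.0, 101, 111 and 27.2 CPM, and at 72 h 14.3, 25.2, 29.9 and 17.4 CPM. At 96 h they were 4.31, 5.44, 8.10 and 0 CPM, and all 4 were below every library of an earlier time.

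In run 7 miR-142a-3p was down to 20.3% of its 0 h level within 6 h, where the other series kept 60.8, 47.7 and 92.5%. That step is the one at which the run 7 libraries began to stand apart. Without run 7 the mean change of miR-142a-3p was 0.08 from 0 h to 24 h, -0.81 from 24 h to 48 h, -1.95 from 48 h to 72 h and -1.77 from 72 h to 96 h. With run 7 the same windows gave -0.44, -0.70, -1.62 and -2.38. A lasting fall is not what the 2-fold time shows here, since it marks the first dip: it was 2.65 h in run 7 and 59.8 h at the latest, with a median of 24.9 h and of 44.0 h without run 7.

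MiR-142a-5p followed the 3p arm. Its level was 153, 129, 89.7 and 83.3 CPM at 0 h, 195, 94.0, 69.7 and 6.35 CPM at 24 h, and 156, 105, 126 and 43.5 CPM at 36 h. It was at 16.7, 37.3, 25.2 and 0 CPM at 72 h and at 6.58, 9.32, 9.09 and 0.41 CPM at 96 h. Its 2-fold time had a median of 52.0 h, and of 56.2 h without run 7.

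**Figure D2:**
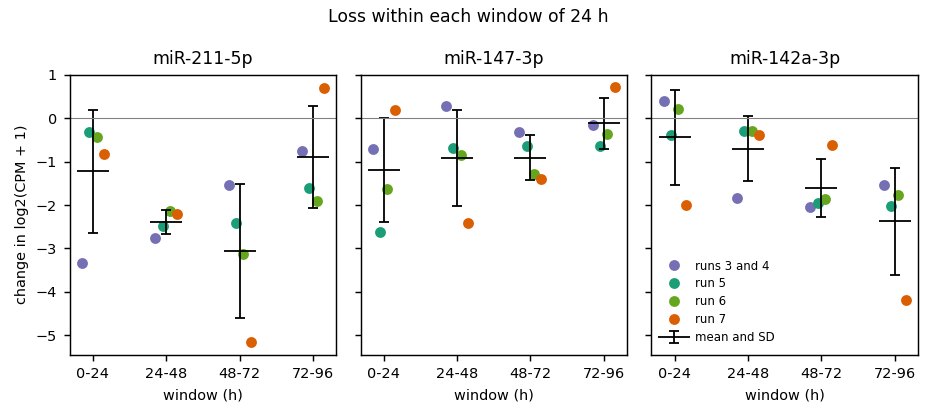
Change in log2 of TMM-scaled CPM plus 1 within each window of 24 h for the main arm of each hairpin, with a point for each series and a bar for the mean and SD of the 4. MiR-211-5p was below 0 in every series in the windows between 24 h and 72 h, with a mean of -2.39 from 24 h to 48 h and of -3.06 from 48 h to 72 h.

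Over the whole course, the contrast that chose the members, the log2 fold change of 96 h against 0 h was -8.97 for miR-211-3p, -7.50 for miR-211-5p, -5.34 for miR-147-5p, -5.02 for miR-142a-3p, -4.13 for miR-142a-5p and -3.78 for miR-147-3p. These are places 1, 2, 4, 6, 11 and 14 of 740 miRs. The 2 miR-211 arms, of which miR-211-3p rests on few reads at 96 h, were the lowest. Among the others, miRs outside the choice lay between them, with miR-150-3p in place 3 (-5.43), let-7g-5p in place 5 (-5.02) and miR-1668 in place 7 (-4.75). Just outside, let-7c-2-3p and let-7a-1-3p, whose counts are identical, were at -3.77. In edgeR 92 of 740 miRs fell in this contrast, 12.4%.

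The libraries of 6 h and 72 h were in neither end of that contrast and were compared with the quasi-likelihood test of edgeR, with p adjusted over all miRs. They belong to the same series as the libraries of 0 h and 96 h. The members were chosen for a fall, so calls of a fall here are no independent evidence of one. MiR-211-5p fell by 6.57 on the log2 scale (SE 1.16, adjusted p = 1.2e-04), and its 4 libraries at 72 h were all below the 4 at 6 h. MiR-211-3p fell as well (adjusted p = 1.2e-05), with a fitted value of -9.74 that depends on the single read at 72 h. The other 4 did not pass. MiR-147-3p was at -2.997 (SE 1.15, adjusted p = 0.0679), miR-147-5p at -2.14 (SE 0.93, 0.112), miR-142a-3p at -1.87 (SE 0.70, 0.0607) and miR-142a-5p at -1.88 (SE 0.87, 0.147). So 2 of 6 members fell, where 9.73% of all 740 miRs fell, and all 6 had an unadjusted p under 0.05. The median over all miRs was 0.08 with TMM, 0.67 with library totals and 0.34 with DESeq2, and the changes are relative to that shift.

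The runs pair the libraries, and with the run as a block all 6 members fell from 6 h to 72 h, where 16.5% of the 740 miRs did. The block takes runs 3 and 4 as separate, so 6 h and 72 h are paired within runs 5, 6 and 7 only. In that fit miR-147-3p was at -2.36 (SE 0.53, adjusted p = 7.7e-04), miR-142a-3p at -1.60 (SE 0.47, adjusted p = 0.00934) and miR-147-5p at -2.08 (SE 0.72, adjusted p = 0.0255). Without run 7 and without the block, 4 of 6 fell, where 15.4% of 746 miRs did: both arms of miR-211 and both of miR-142a. There miR-142a-3p was at -2.02 (SE 0.36, edgeR adjusted p = 2.3e-04) and miR-147-3p at -2.27 (SE 0.95, edgeR adjusted p = 0.0731). DESeq2 called 4 of 6, where it called 12% of 716 miRs, and edgeR with library totals 3, where it called 4.19%. With the block and without the 72 h library of run 7, edgeR called 6, where it called 15.6% of 745 miRs.

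**Figure D3:**
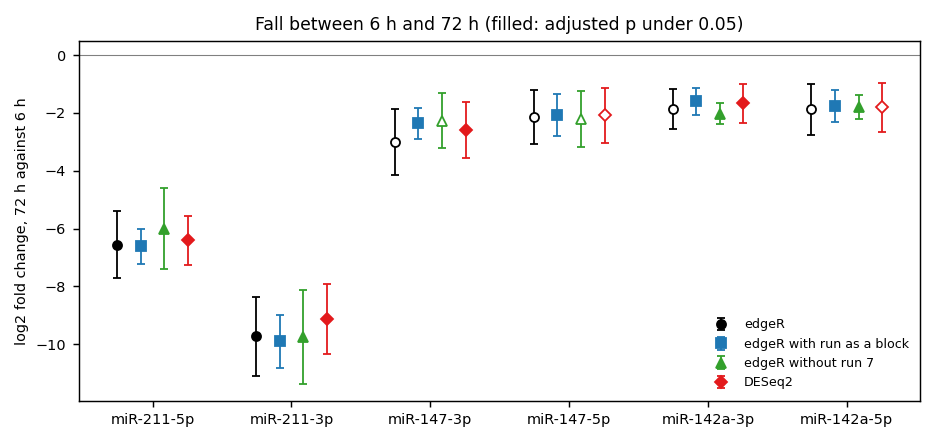
Log2 fold change of 72 h against 6 h for each of the 6 miRs in 4 fits, with bars for the SE and filled points for an adjusted p under 0.05. Both arms of miR-211 were called in each fit shown, and all 6 miRs only with the run as a block.

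Between neighbouring times from 6 h to 72 h, the 6 members gave 30 steps, of which 1 fell in edgeR. That was miR-211-3p from 48 h to 72 h (adjusted p = 0.0435), where 0.541% of all miRs fell, and the call was lost in 19 of 32 fits that left out 1 library each. In the 4 earlier steps edgeR called 0 of the 24 member steps as a fall, as it did of 740 miRs, and DESeq2 called none of them either. No more than 3 of the 30 had an unadjusted p under 0.05, and all 3 were from 48 h to 72 h. In that step miR-211-5p was at -3.21 (SE 0.99, edgeR adjusted p = 0.135) and miR-142a-3p at -1.79 (SE 0.70, edgeR adjusted p = 0.247).

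With the run as a block, 4 members fell from 48 h to 72 h, where 5.81% of all miRs did. These were both arms of miR-211 and of miR-142a, with miR-211-5p at -2.96 (SE 0.51, adjusted p = 7.5e-04) and miR-142a-3p at -1.72 (SE 0.46, adjusted p = 0.0207). Leaving out the shallow 72 h library of run 7 as well, 3 fell, where 3.62% of all miRs did. MiR-142a-5p was then at -1.65 (adjusted p = 0.0567) in edgeR. Neither arm of miR-147 fell in any step between 6 h and 72 h in these fits, and DESeq2 called 2 steps, both arms of miR-211 from 48 h to 72 h, where 1.82% of its miRs fell. Without run 7 and without the block, the 1 call was miR-142a-3p (edgeR adjusted p = 0.0139), where 0.134% of all miRs fell, and miR-211-3p did not pass (edgeR adjusted p = 0.149).

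Which miR was lost sooner was read from the ratio of 2 miRs within a library, which needs no scaling between libraries. The main arms of the 3 hairpins and the summed miR-290 cluster, 18 mature miRs that are abundant in mESCs, gave 6 ratios. From 24 h to 48 h, the window that uses no library of 0 h or 96 h, none of the 6 passed the exact two-sided permutation test, whose smallest possible p is 0.0286. The ratio of miR-211-5p to the cluster differed by -1.90 on the log2 scale, lower in 4 of 4 series (exact permutation p = 0.143, adjusted 0.429). That of miR-211-5p to miR-142a-3p differed by -1.70, lower in 4 of 4 series (exact permutation p = 0.371, adjusted 0.669). That of miR-211-5p to miR-147-3p differed by -1.47, lower in 3 of 4 series (exact permutation p = 0.229, adjusted 0.514). Adjustment was over the 18 ratios of 3 windows, which include those with libraries of 0 h or 96 h. Even with all 6 ratios at the smallest p, none would pass unless ratios of other windows were low as well. The test also leaves out the pairing of libraries by series. It therefore cannot decide which miR was lost sooner.

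The share of the arms is given with no test, since it is set against 0 h. The 5p arm of miR-211 made up 97.5% ± 0.484 (SD, n = 4) of the reads of both arms at 0 h, 99.3% ± 0.227 at 24 h and 99.5% ± 0.767 at 96 h. The libraries of 0 h, from 96.9 to 97.9%, were all below those of 24 h. For miR-142a the 5p share was 42.9% ± 4.80 at 0 h, 34.6% ± 14.1 at 24 h and 47.5% ± 8.47 at 48 h. For miR-147, libraries held as few as 13 reads of both arms, under the minimum of 20, and no mean share is given.

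MiR-204-5p, with the seed of miR-211-5p, was scarce beside it at 0 h, at 7.50, 25.8, 30.5 and 35.4 CPM. At 96 h it was at 6.17, 6.30, 5.07 and 4.87 CPM, above miR-211-5p (3.17 CPM) in run 3 and below it in runs 5, 6 and 7. Some counts were not whole, since reads that map to several miRs were split, and reads that fit both miRs cannot be told apart. MiR-204-3p stayed at or below 7 reads in each library. MiR-142b, which is listed for the opposite strand of the miR-142 locus, had 1 read in all 32 libraries.

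The miRs whose mean course over the 8 times was most like that of miR-211-5p were miR-24-1-5p (r = 0.996), miR-135b-3p (0.990) and miR-27b-5p (0.988), of 573 miRs. For miR-147-3p they were let-7a-1-3p and let-7c-2-3p (both 0.988) and let-7i-5p (0.986). For miR-142a-3p they were miR-1968-5p (0.979), miR-295-3p (0.975) and miR-291a-3p (0.968). These are over 8 means that share libraries, depth and scaling, and are descriptions only. Over the 32 libraries, r was 0.920 for miR-24-1-5p with miR-211-5p, 0.484 for let-7a-1-3p with miR-147-3p and 0.193 for miR-1968-5p with miR-142a-3p. Between the main arms, r over the 8 means was 0.946 for miR-211-5p with miR-147-3p and 0.815 for miR-147-3p with miR-142a-3p.

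The hosts of miR-211 and miR-147 were low within hours. Trpm1 was read in total RNA only, given as CPM of library totals. In run 1 it was at 208 CPM at 0 h, 28.2 at 6 h, 0.94 at 24 h and 0 at 96 h. In run 3 it was at 117 CPM at 0 h and at 0.08 CPM, 1 count, at 12 h. In run 2 it was at 50.6 CPM at 0 h and 0.15 at 96 h. At 24 h, Trpm1 was thus at 0.450% of its 0 h level in run 1, while miR-211-5p was at 9.86 to 80.5% in the small RNA series. Of these series only that of runs 3 and 4 shares a replicate number with the total RNA of Trpm1, and the difference in timing was not tested. In the 2 libraries at 96 h and the 2 at 0 h, of runs 1 and 2, Trpm1 was down from 8419 counts to 5, a log2 fold change of -10.87 (SE 1.29, edgeR adjusted p = 0.00424).

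AA467197, the host of miR-147, was at 5.86, 6.06 and 4.67 CPM in cytoplasmic RNA of runs 5, 6 and 7 at 0 h. At 6 h it was at 0.85, 0.34 and 0 CPM, and at 24 h at 0.46, 0.25 and 0 CPM, so that no later library overlapped with 0 h. Its log2 fold change was -4.57 at 24 h (SE 0.90, edgeR adjusted p = 2.6e-04) and -5.36 at 96 h (SE 0.97, edgeR adjusted p = 4.0e-05), from 5 counts in 3 libraries at 96 h against 200 at 0 h. In nuclear RNA it was at 4.00, 1.49 and 6.69 CPM at 0 h and at 0, 0 and 0.42 CPM at 6 h. Total RNA of run 1 kept more of it at 6 h, with 2.01 CPM at 0 h, 1.44 at 6 h and 0.14 at 24 h. At 6 h AA467197 was at 14.5, 5.66 and 0% of its 0 h level in replicates 5, 6 and 7. In the small RNA libraries of the same numbers, miR-147-3p was at 28.8, 33.3 and 76.7% at 6 h, the last of which was 29.3% with library totals, and run 7 was at 114% at 24 h (29.0% with library totals). MiR-147-5p, the other arm, was lower in these libraries, at 5.63 to 28.5% at 6 h. The difference in timing between host and miR was not tested.

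**Figure D4:**
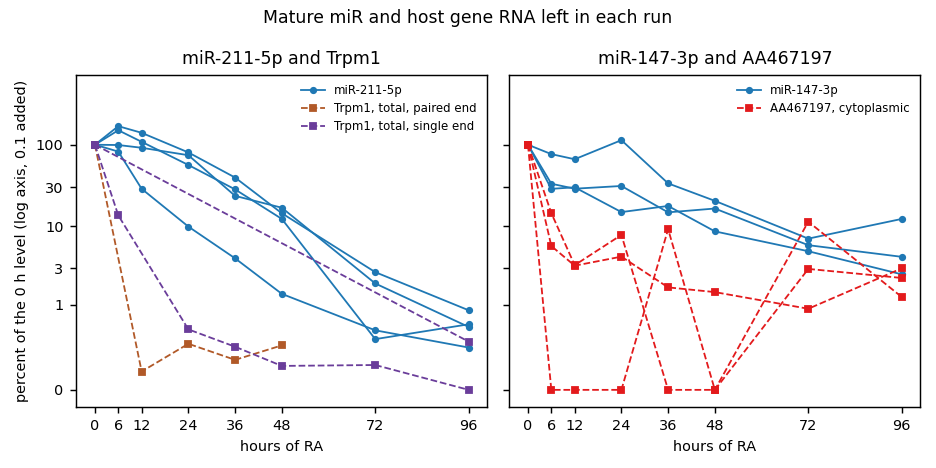
Percent of the 0 h level, on a log axis with 0.1 added, against hours of RA, for miR-211-5p with its host Trpm1 in total RNA and for miR-147-3p with its host AA467197 in cytoplasmic RNA, with a line for each run and without runs 3 and 4 for miR-147-3p. Trpm1 was at 13.6% at 6 h and 0.450% at 24 h in run 1, and points of AA467197 after 0 h stand for 0 to 13 counts.

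The host of miR-142 was too scarce to follow. Mir142hg was listed at 0 in all fractions and at 0.10 CPM at most in total RNA, with 3 counts or fewer. Tspoap1, a neighbour that encodes a protein of the synapse, was at 1.03 to 1.77 CPM in cytoplasmic RNA at 0 h, at 0, 0.11 and 0.22 CPM at 6 h, and at 2.82 to 3.68 CPM at 48 h. In nuclear RNA it was at 6.30, 3.53 and 1.55 CPM at 0 h and at 0.64, 0.56 and 0.25 CPM at 6 h, so that it was lower at 6 h in both fractions of each replicate. It rose at 48 h (log2 fold change 1.28, SE 0.37, edgeR adjusted p = 0.00554). Supt4a, a neighbour that encodes an elongation factor of transcription, fell by 0.76 on the log2 scale at 96 h (SE 0.18, edgeR adjusted p = 6.7e-04). Trpm3, the host of miR-204, stayed at or below 1.72 CPM in cytoplasmic RNA.

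Among the MiT factors, the family of MITF, which itself drives Trpm1 in pigment cells, Mitf fell early. In cytoplasmic RNA it was at 97.2, 92.5 and 88.9 CPM at 0 h, 33.3, 36.7 and 37.5 CPM at 6 h, and 9.67, 9.95 and 9.67 CPM at 24 h. Its log2 fold change was -3.25 at 24 h (SE 0.18, edgeR adjusted p = 2.0e-12) and -3.33 at 96 h. Its relative Tfeb fell by 1.32 at 24 h (SE 0.13, edgeR adjusted p = 2.7e-08) and by 3.08 at 96 h on the log2 scale. In total RNA of runs 1 and 2, Mitf was at -1.95 at 96 h (SE 0.31, edgeR adjusted p = 0.00913). Tfeb was there at -2.15 (SE 0.31, edgeR adjusted p = 0.00738). Mitf in total RNA of run 1 was at 33.9 CPM at 0 h, 2.29 at 36 h and 9.26 at 96 h. Tfe3 was read in total RNA only, with a log2 fold change of 0.06 at 96 h (SE 0.29, edgeR adjusted p = 0.904). Tfec, another MiT factor, was listed at 0 in the 3 total RNA libraries of 0 h. In total RNA of runs 1 and 2 it reached 9.35 and 14.5 CPM at 96 h, a rise in edgeR (adjusted p = 0.00278), where 16.3% of genes rose. The fractions held far less of it at 96 h. Cytoplasmic RNA had 0.37 to 0.78 CPM, 25 counts in 3 libraries, and nuclear RNA had 49 counts in 3 libraries. Total RNA of run 3, which has no 96 h library, had 0 counts at 36 h and 1 at 48 h. Run 1 had 154 and 176 counts at these times. Over hosts, neighbours and MiT factors, 10 genes in all, 4 of 5 tested fell in cytoplasmic RNA at 96 h, where 34.4% of 11675 genes fell. In nuclear RNA 2 of 4 tested fell, where 27.8% of 11934 genes did, and in total RNA 4 of 7, where 13.2% of 15851 did.

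The naive pluripotency genes were read for the pace of the cells. In cytoplasmic RNA, 8 of 10 tested genes had fallen at 24 h, where 22.6% of all genes fell, and all 10 at 48 h, where 28.6% fell. Tfcp2l1, a factor of the naive state, was already at 701 ± 66.8 CPM at 6 h, from 1592 ± 55.8 CPM (SD, n = 3) at 0 h. Nanog was at 956 ± 74.3 CPM at 0 h, 672 ± 16.8 at 24 h and 235 ± 37.9 at 48 h. The naive genes did not all go down by 6 h. Pou5f1 was then at a mean of 1991 CPM, Tbx3 at 475, Sox2 at 573 and Esrrb at 1049. Their means at 0 h were lower, at 1458, 300, 492 and 968 CPM. Nanog, Klf4, Klf5, Prdm14 and Tcl1 had lower means at 6 h than at 0 h. At 6 h, AA467197, Mitf and Tfcp2l1 were thus all below their 0 h levels in each of the replicates 5, 6 and 7. MiR-211-5p was at 169 and 99.2% of its own in runs 5 and 6, and in run 7 at 150% with TMM and 57.4% with library totals. No test set these courses against each other.

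Genes known in the literature as targets were read for a change as the miRs went down. Il6st encodes gp130, the receptor subunit through which LIF signals, and is known as a target of miR-142-3p. The word ACACTAC, which pairs with the seed of miR-142a-3p, stood at 2 places in its longest 3′ UTR. That word is in 6.03% of the 20998 3′ UTRs read (longest of each gene, sense strand). Igf2r, a receptor for insulin-like growth factor 2 in the list for miR-211-5p, had 1 place with AAAGGGA, a word in 14.9% of these 3′ UTRs. The sites, with the word in capitals, are shown as the places where pairing could occur, at chr13:112506249-112506270 and chr13:112509874-112509895 on the plus strand for Il6st and at chr17:12683590-12683611 on the minus strand for Igf2r, on GRCm38.
Il6st, first: agagaccagaattcACACTACa
Il6st, second: tttggttaagtcccACACTACt
Igf2r: aacaaaactgcttcAAAGGGAa

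Il6st was at 275 ± 10.8 CPM (SD, n = 3) in cytoplasmic RNA at 0 h and at 112 ± 4.54 CPM at 24 h, with no overlap, while miR-142a-3p outside run 7 was at 76.3 to 133% of its 0 h level. It fell by 1.30 at 24 h (SE 0.12, edgeR adjusted p = 4.4e-09) and by 1.25 at 48 h on the log2 scale. At 96 h, with 0 to 6.89% of miR-142a-3p left (up to 14.5% with library totals), Il6st was back at 274 ± 25.3 CPM, and its log2 fold change against 0 h was -0.00 (SE 0.11, edgeR adjusted p = 0.992). Igf2r fell by 0.73 at 24 h on the log2 scale (SE 0.09, edgeR adjusted p = 3.5e-07) and was at -0.11 at 96 h (SE 0.09, edgeR adjusted p = 0.283). In total RNA of replicates 1 and 2, Igf2r rose by 1.85 at 96 h (SE 0.23, edgeR adjusted p = 0.00498).

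Of 5 genes listed for miR-142a-3p, all tested, 2 rose and 1 fell at 96 h, where 33.3% of all genes rose. At 24 h 2 rose and 3 fell, where 21.2% of all genes rose and 22.6% fell, and at 48 h 2 rose and 2 fell, where 28.4% rose. The third fall at 24 h was Tgfbr1, at -0.32 (SE 0.12, edgeR adjusted p = 0.0405), a call that was lost with DESeq2 and in 9 alternatives in all. At 96 h their median was 0.29 and that of all genes -0.02. Rac1, a small GTPase, rose by 1.00 (SE 0.11, edgeR adjusted p = 2.5e-08) and Tgfbr1, a receptor of TGF-beta, by 0.94 (SE 0.12, edgeR adjusted p = 4.3e-07), each with 1 match to ACACTAC. Wasl, an activator of actin assembly with 1 match, fell by 0.39 on the log2 scale (SE 0.08, edgeR adjusted p = 2.9e-04). Adcy9, an adenylyl cyclase, had no match and was at 0.29 (SE 0.33, edgeR adjusted p = 0.45). Its 3′ UTR was listed with only 369 bases, against 2480 to 5641 for the other genes of this list.

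Of the 6 genes listed for miR-211-5p, 3 could be tested in cytoplasmic RNA, and 2 of them rose at 96 h, where 33.3% of all genes rose. In total RNA 5 were tested and 1 rose, which was Igf2r, where 16.3% of all genes rose. Pou3f2, a neural transcription factor, rose by 5.02 at 96 h (SE 0.41, edgeR adjusted p = 2.8e-10), from 0.55 ± 0.24 to 18.5 ± 0.43 CPM (SD, n = 3). Meis2, a homeobox factor of the RA response with no match to AAAGGGA, rose by 2.31 (SE 0.14, edgeR adjusted p = 8.4e-13). In total RNA Pou3f2 was at 2.83 (SE 1.12, edgeR adjusted p = 0.111) and Meis2 at 0.62 (SE 0.45, edgeR adjusted p = 0.345), neither past the threshold. Ndufa4, the one gene listed for miR-147-3p and a subunit of the respiratory chain, fell by 0.83 at 96 h on the log2 scale (SE 0.32, edgeR adjusted p = 0.0275). Its libraries at 0 h ranged from 83.3 to 196 CPM, and without that of run 5 it was at -0.46 (edgeR adjusted p = 0.235). DESeq2, which called 32.6% of genes as lower, gave an adjusted p of 0.0588. Of the genes that the study lists with one of these miRs, chosen on these samples and so no independent evidence, 0 of 7 tested rose and 5 fell at 96 h, where 33.3% of all genes rose and 34.4% fell. In total RNA 1 of 9 fell, where 13.2% of all genes did.

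**Figure D5:**
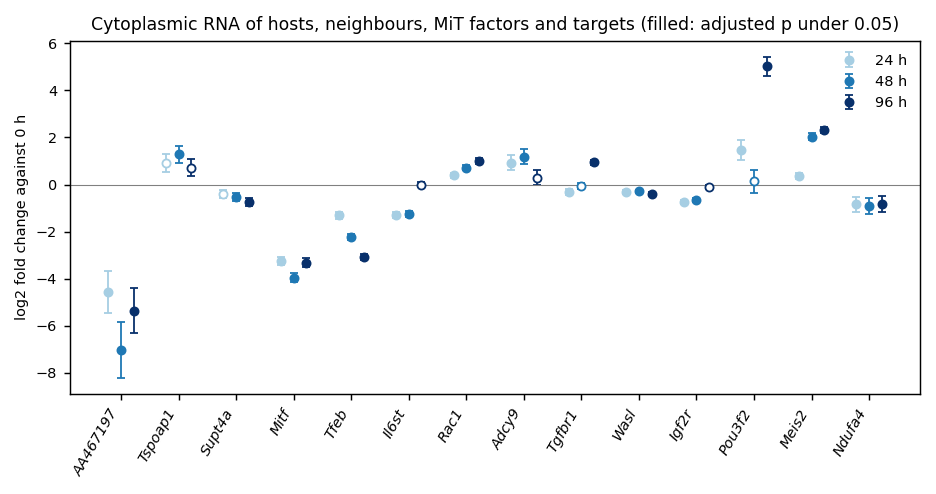
Log2 fold change in cytoplasmic RNA against 0 h at 24, 48 and 96 h for hosts, neighbours, MiT factors and literature targets that could be tested, with bars for the SE and filled points for an adjusted p under 0.05. AA467197, Mitf and Tfeb were below 0 at all 3 times, and Il6st and Igf2r returned to near 0 at 96 h.

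Markers of the other cell types known to hold these miRs were read beside them. Of 10 blood markers 8 were listed in cytoplasmic RNA, and their summed level was 208 to 228 CPM at 0 h, 101 to 116 at 24 h and 27.8 to 39.4 at 96 h. Laptm5 alone made up 160 to 185 CPM of this at 0 h. Lcp1 was at 39.1 to 46.1 CPM at 0 h and 4.26 to 6.29 at 96 h, and Spi1 at 2.04 to 2.51 and 0.074 to 0.21 CPM. Runx1 was at 0.37 to 1.13 CPM at 0 h and 13.1 to 20.6 CPM at 96 h. The defining blood markers Ptprc and Cd53 were at 0 in all libraries of 0 h. Of 8 markers of melanocytes and pigment epithelium 7 were listed, with a sum of 97.0 to 105 CPM at 0 h and 11.2 to 14.4 at 96 h, most of it Mitf. Pmel was at 5.30 to 7.71 CPM at 0 h and 2.70 to 3.05 at 96 h, and Mlana at 0.96 to 2.05 and 0 to 0.12 CPM. Dct and Rpe65 were at 0 in all libraries of 0 h and 96 h. The sum of the fibroblast markers, of which 6 of 7 were listed, went from 3.42 to 4.93 CPM at 0 h to 201 to 241 CPM at 96 h, and the part of these cells in the results was not tested.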

How the data were processed

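Small RNA values are estimated counts of reads per mature miR, which the authors made with miRDeep2 (bowtie) on miRBase and deposited without scaling. Reads that map to several miRs or precursors were split, so values need not be whole. Of several precursors the highest value was taken. RNA values are expected counts per gene, which the authors estimated with RSEM on mm10 and deposited. Both were rounded to whole numbers for the tests. Cytoplasmic libraries held 9119520 to 21652600 counts, nuclear 6860450 to 30624900, and total RNA 29362000 to 36364300 (single end) or 12654000 to 13692800 (paired end).

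After TMM scaling, quasi-likelihood fits were made in edgeR 4.0.16 (R 4.3.3) over all features with a mean count above 10, with p-values adjusted by Benjamini and Hochberg at 0.05. DESeq2 1.42.0 was an alternative. Ratios from 24 h to 48 h were tested by exact permutation over libraries, with 0.5 added to each count. Ratios in other windows and arm shares, whose tests were planned, draw on 0 h or 96 h libraries and are given with no test. Fits were tested on simulated data. Runs pair the libraries by their labels: deviations of miR libraries of a run had a median correlation of 0.746, against -0.125 between runs, and of 0.0852 in cytoplasmic and 0.0942 in nuclear RNA. Libraries of the same time are labelled as separate biological replicates, read here as runs, so p-values rest on the spread between these. The main fits leave out the pairing by run and take libraries of a run at different times as independent. Only the fits with the run as a block account for it. No 2 libraries differed by as little as sampling noise.

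Named are all members, their relatives, the 3 miRs most like each main arm (mean count of at least 50), hosts, neighbours, MiT factors, targets and naive pluripotency genes. Members and lists were chosen with earlier results of these data known. A listed target gene is not reported here. Sorted cells, transfections of other miRs and the table of UTR counts were not used here. Figures were drawn with matplotlib 3.10.9.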

Additional observations from a re-analysis of the deposited data

Results flagged for a closer look

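In 12 of 62 groups of 4 values, 1 library stood far from the other 3, where chance gives about 1 in 20. The groups held levels, as log2 of CPM plus 1, times to a 2-fold fall, or 5p shares. All 12 were groups of levels. In 9 of them it was the lowest, from runs 3 and 4: miR-211-5p at 12 h (8.64), 24 h (7.10), 36 h (5.80), 48 h (4.34) and 96 h (2.06), miR-211-3p at 0 h (5.50) and 24 h (0.61), and at 0 h miR-147-3p (2.25) and miR-147-5p (1.09). In 2 it was the lowest, from run 7: miR-142a-3p at 36 h (5.98) and miR-142a-5p at 96 h (0.49). The last was miR-211-3p at 72 h, where run 5 was the highest with 1 read (0.15).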

How the results depend on the processing

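Depth limits the low arms most: the 72 h library of run 7 held 1046530 counts, and miR-211-3p and miR-147-5p were read from a few counts at late times. From 6 h to 72 h, 2 of 6 members fell in edgeR. The number was 4 with DESeq2, 4 without run 7, 6 with the run as a block, and 6 with the block and without the 72 h library of run 7 (both settings without libraries of run 7 were chosen after seeing the data), and 2 to 4 with each library left out, the 4 being without the 24 h library of run 7. Of the steps from 6 h to 72 h, 1 fell, against 2 with DESeq2, 4 with the block, 3 with the block and without the 72 h library of run 7, 0 with library totals, 0 without a filter on low counts, and 0 to 1 with each library left out. With at least 10 counts required in every library no member was left. The block added Supt4a to the falls in nuclear and in total RNA at 96 h (edgeR adjusted p = 0.045 and 0.0302). In cytoplasmic RNA it added Supt4a at 24 h (edgeR adjusted p = 0.0248). It also changed calls of target genes in total RNA at 96 h. There 4 of 5 genes listed for miR-211-5p rose with the block, against 1 without it. For miR-142a-3p, 3 of 5 listed genes rose with the block, against 1 without it. Ndufa4, listed for miR-147-3p, fell with the block (edgeR adjusted p = 0.0402) and was not called without it. Of the genes that the study lists, 2 of 9 fell with the block, against 1 without it. The share of all genes called in that fit is not given here, so these counts cannot be set against it. On the ratios from 24 h to 48 h, the exact sign-flip test of 4 pairs cannot go below 0.125. Among hosts, neighbours and MiT factors, 4 fell in nuclear RNA without a filter, where 2 fell with it, and 2 in total RNA with the strict filter, where 4 fell, and with a library left out 3 to 4 fell in cytoplasmic and in total RNA. Of the targets in cytoplasmic RNA, 2 were lower at 96 h, 1 with DESeq2, and 1 to 2 with a library left out, the 1 being without run 5 at 0 h or run 7 at 96 h. The time to a 4-fold fall was 28.5 h for miR-147-3p and 59.4 h for miR-142a-3p. With a series left out, the 2-fold time was 26.1 to 28.2 h for miR-211-5p, 3.67 to 18.1 h for miR-147-3p and 5.67 to 44.0 h for miR-142a-3p. Of the ratios, 4 changed sign with a series left out. MiR-211-5p to miR-147-3p from 0 h to 24 h gave -0.70 without run 5, -0.30 without run 6, 0.45 without run 7 and 0.88 without runs 3 and 4. MiR-211-5p to miR-142a-3p in that window gave 0.21 without runs 3 and 4 and negative values otherwise, to -1.44. From 24 h to 48 h, miR-147-3p to miR-142a-3p gave -1.05 without runs 3 and 4, -0.14 without run 5 and 0.39 without run 7, and miR-147-3p to the miR-290 cluster gave -1.21, -0.40 and 0.084. The causes were not tested.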
